A study of Homo sapiens with 2 samples.

Results

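The genes described here are 10 adhesion and filament genes that are commonly used to tell epithelial from mesenchymal cells, out of 20298 protein-coding genes in the count tables. They were taken by gene symbol and protein-coding label. The 5 epithelial genes were CDH1, EPCAM, KRT8, KRT18 and KRT19, and the 5 mesenchymal genes were VIM, CDH2, FN1, ITGA5 and ITGB1. All 10 were found, and 9 had a mean count of at least 10 in the first read mate, as did 65.1% of all protein-coding genes. KRT19 had 0 counts. EPCAM was among the 9 only with the counts of a small RNA copy inside it. Without these it had 1 and 8 counts in replicates 1 and 2.

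RNA crosslinked to hTrmt13 (TRMT13), a human tRNA 2'-O-methyltransferase, was recovered with an antibody and sequenced (CLIP-seq) in MDA-MB-231, an established human breast carcinoma line. All libraries belong to 1 group, with no treatment named in the labels, and it has 2 replicates. No input or control antibody library was analysed here. Each replicate had a count table for each read mate, R1 and R2. The 2 mates of a library are not independent, so a result seen in both is not thereby repeated. Whether the replicates were separate cultures is not in the labels, so the spread between them may be technical.

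Epithelial cells are held together by E-cadherin and EPCAM at their membranes and carry a cytoplasmic network of paired type I and type II keratins. In an epithelial-mesenchymal transition, E-cadherin and keratins give way to N-cadherin and vimentin, and contact with fibronectin through integrins gains weight. MDA-MB-231 is known as a mesenchymal-like line with low E-cadherin and high vimentin. A CLIP library counts RNA recovered with a protein, so a count here joins how much of an RNA a cell holds with how well it was recovered. Without an input library these cannot be told apart, nor can fewer cells holding an RNA from less of it per cell. Counts are listed for the whole span of a gene with its introns. They can therefore hold intronic reads and, where strand was not used, antisense reads beside the mRNA.

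R1 gave 27907799 counts for replicate 1 and 20590398 for replicate 2. The R2 totals came to 40.3% and 42.7% of these. Levels are given as CPM, the count scaled to a common table total, from R1 unless stated. A count grows with the length of a gene, so levels of different genes were set side by side per kilobase of the listed genomic span (CPM per kilobase) or of exon. Comparisons by count or CPM alone are named as such. Without tRNA features and the features overlapping them, 2655204 and 3357684 R1 counts remained in replicates 1 and 2. Most of each total thus lay in tRNA features and their overlaps, with the larger share in replicate 1. A CPM, its SD and the gap between its intervals therefore carry this difference in share as well as the gene's own. Scaled to the remaining counts, CDH1 was at 15.1 ± 0.0879 CPM, EPCAM at 7.79 ± 0.360 and ITGB1 at 51.1 ± 4.03 (SD, n = 2). Relative to the mean, the spread stayed wider for KRT18 (11.44 ± 4.46), VIM (179.4 ± 50.3), CDH2 (38.45 ± 9.64) and FN1 (24.96 ± 13.99). Intervals are exact Clopper-Pearson 95% intervals and cover counting error only. PCR copies of a molecule are not independent, and the sources used here do not state whether molecular identifiers were used.

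The labelled line was compared with marker genes. Of 7 genes abundant in this line, 3 passed the mean count of 10: VIM, EGFR (128 and 136 R1 counts in replicates 1 and 2) and TMSB10 (56 and 108). S100A6 had 0 counts in all 4 tables. ANXA1 had 0 and 3 R1 counts, CD44 had 12 and 7, and LGALS1 had 5 and 9. Thus 4 of the 7 markers were absent or low in these libraries, and why was not tested. Of 8 luminal epithelial markers 7 passed, led per kilobase by KRT18. They included FOXA1 (12 and 20), GATA3 (11 and 33) and ESR1 (4 and 20), and their summed CPM was 4.62 and 10.9. EPCAM passed only with the counts of a 7SK RNA copy inside it, described below. Without these it had 1 and 8 R1 counts, below the minimum. None of 4 basal epithelial, 5 blood, 3 liver and 3 endothelial markers passed, and KRT5, KRT14 and KRT17 had 0 counts. Of 6 fibroblast markers 1 passed, COL1A1 with 43 and 77, while COL1A2, DCN and LUM had 0. Of 3 neuron markers 2 passed, SYT1 with 147 and 216 and RBFOX3 with 24 and 54. Both are long genes, with spans of 588 and 427 kb. Per kilobase they were at 0.0134 and 0.00408 CPM, percentiles 33.4 and 24.1 of protein-coding genes. EGFR, with a span of 193 kb, was at 0.0291, percentile 42.4.

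In EPCAM and CDH1, the adhesion genes of the epithelial group, part of the count stood on a small non-coding RNA copy inside the gene. RN7SKP119 is a copy of 7SK RNA, and RNA5SP429 is a copy of 5S ribosomal RNA. Both lie in introns, 9151 and 4069 bases from the nearest exon of their host in GENCODE release 29, matched by gene ID on GRCh38. The table positions, in hg19, are chr2:47586644-47586916 on the minus strand, opposite to EPCAM, and chr16:68776383-68776491 on the plus strand, the strand of CDH1. The sequences are the GENCODE release 29 transcripts, 5′ to 3′, and their lengths of 273 and 109 bases equal those of the table entries. Capitals mark the longest stretch shared without a mismatch with RN7SK or RNA5S1, the functional parents. They are shown because the EPCAM count turns on its copy, and the order of the cadherins per kilobase in replicate 1 on that in CDH1.
RN7SKP119: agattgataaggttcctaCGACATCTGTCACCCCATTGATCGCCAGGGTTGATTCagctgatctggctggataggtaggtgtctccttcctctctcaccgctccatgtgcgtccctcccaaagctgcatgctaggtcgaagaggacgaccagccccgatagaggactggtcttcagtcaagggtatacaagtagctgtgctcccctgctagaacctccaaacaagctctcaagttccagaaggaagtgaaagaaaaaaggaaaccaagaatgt
RNA5SP429: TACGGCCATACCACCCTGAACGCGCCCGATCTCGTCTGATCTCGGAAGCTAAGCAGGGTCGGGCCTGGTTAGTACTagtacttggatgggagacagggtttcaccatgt
RN7SKP119 matched RN7SK at 232 of 270 aligned bases (85.9%), with a shared run of 37 bases. RNA5SP429 matched RNA5S1 at 96 of 103 aligned bases (93.2%), with a shared run of 76 bases that starts at its first base. RN7SK itself had 4975 and 6977 R1 counts in replicates 1 and 2, from the first of its 2 entries. RNA5S1 had 20 and 11. It is a single gene of the 5S family, so its count is not the level of 5S RNA as a whole, and these parent counts are not comparable.

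EPCAM, an adhesion glycoprotein of simple epithelia (chr2:47572297-47614740, plus strand), had 20 R1 counts in replicate 1 and 27 in replicate 2. Its R2 counts were 5 and 13. RN7SKP119 held 19 of the 20 and 19 of the 27 R1 counts, and 0 of the 5 and 8 of the 13 R2 counts. Taking these off left 1 and 8 counts in R1 and 5 and 5 in R2. So most of the EPCAM count in R1, in both libraries, lay over the 7SK copy, provided that a read in the copy was also counted for the gene on the other strand. EPCAM also stood apart between the mates, and this difference lay mainly over the copy. Over the copy the count went from 19 in R1 to 0 in R2 in replicate 1, and from 19 to 8 in replicate 2. Outside the copy it went from 1 to 5 and from 8 to 5. The whole R2 count of EPCAM was 0.25 of its R1 count in replicate 1 and 0.481 in replicate 2, where the median over protein-coding genes was 0.878 and 0.846. A ratio below 0.5 in both libraries was found in 0.998% of the 13220 protein-coding genes with a mean R1 count of at least 10. The EPCAM level was 0.717 CPM (0.438 to 1.11) in replicate 1 and 1.31 CPM (0.864 to 1.91) in replicate 2, a mean of 1.01 CPM ± 0.420 (SD, n = 2).

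CDH1 encodes E-cadherin, the calcium-dependent adhesion molecule of adherens junctions (chr16:68771128-68869451, plus strand). It had 40 R1 and 44 R2 counts in replicate 1, and 51 and 48 in replicate 2. RNA5SP429 held 9 and 11 of the R1 counts and 14 and 12 of the R2 counts. The antisense gene RP11-354M1.2 inside CDH1 held a further 5 and 6 in R1. Unlike EPCAM, CDH1 kept most of its count outside the copy, 31 and 40 R1 counts. Its level was 1.43 CPM (1.02 to 1.95) and 2.48 CPM (1.84 to 3.26) in replicates 1 and 2, a mean of 1.96 CPM ± 0.738 (SD, n = 2). Among the 13220 genes, 1 nested feature of at most 500 bases held at least 50% of the mean R1 count in 1.29%, as in EPCAM, and at least 10% in 3.36%, as in both of these and in KRT18.

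**Figure D1:**
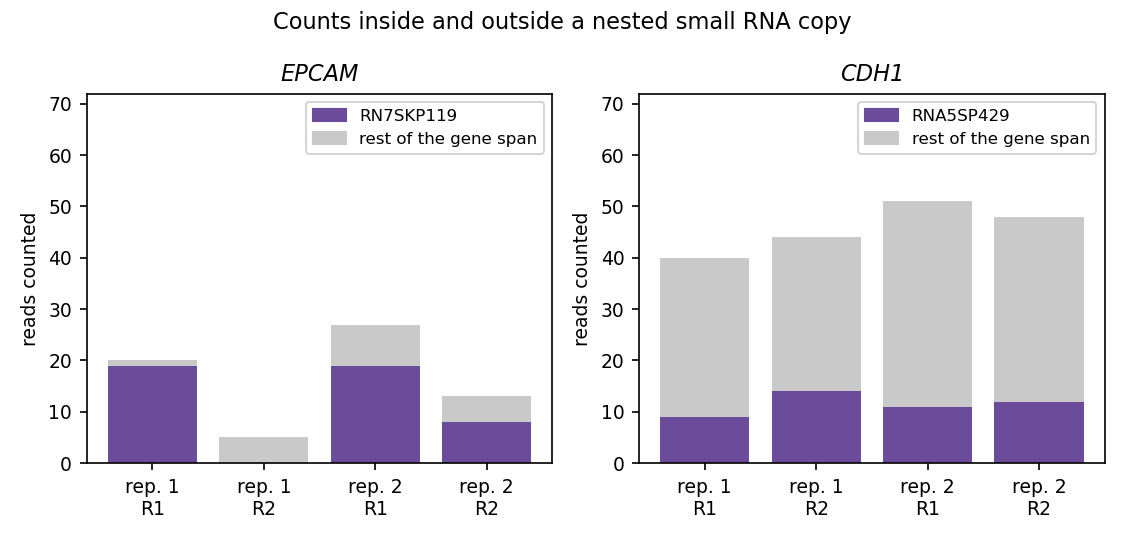
Reads counted (vertical axis) for EPCAM and CDH1 in the 2 replicates and both mates. Purple is the part over the nested copy, RN7SKP119 or RNA5SP429, and grey is the rest of the gene. In EPCAM the purple part is 19 of 20 and 19 of 27 in R1 and 0 of 5 and 8 of 13 in R2, while in CDH1 it is the smaller part of every bar.

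The keratins form the intermediate filaments of epithelial cells, and KRT8 (type II) pairs with KRT18 or KRT19 (type I) in simple epithelia. KRT8 (chr12:53290971-53343738, minus strand) had 20 and 21 counts in the R1 and R2 tables of replicate 1, and 24 and 25 in those of replicate 2. KRT18 (chr12:53342655-53346685, plus strand) had 22 and 20 in replicate 1, and 49 and 36 in replicate 2. KRT18 is much the shorter gene, and per kilobase of span it stood above KRT8 in both libraries. It was at 0.196 against 0.0136 in replicate 1 and 0.590 against 0.0221 in replicate 2. The size of this gap depended on the length used, since exons made 79.8% of the KRT18 span but 13.0% of the KRT8 span. Per kilobase of exon the gap was narrower, with a mean R1 CPM of 0.492 for KRT18 and 0.137 for KRT8. KRT8 was at 0.941 CPM ± 0.317 and KRT18 at 1.58 CPM ± 1.13 (SD, n = 2). The intervals for KRT18 were 0.494 to 1.19 CPM and 1.76 to 3.15 CPM, and those for KRT8 were 0.438 to 1.11 and 0.747 to 1.73. The 2 genes overlap head to head by 1084 bases, of which 525 are exonic in both, and without stated use of strand reads there cannot be told apart.

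KRT19 (chr17:39679869-39684560, minus strand) had 0 counts in all 4 tables, as did 10.8% of all protein-coding genes. In R1 a count of 0 allows up to 0.107 CPM in replicate 1 and 0.146 CPM in replicate 2, taking 3 counts per library as the limit. In R2 it allows up to 0.267 and 0.341 CPM. KRT19 is one of the shorter genes (4.69 kb), and lay at percentile 13.3 of its length decile, where genes tied at 0 share a middle rank.

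Both KRT8 and KRT18 have many pseudogenes, most of them processed. The tables list 12 for KRT8, with 6 and 10 R1 counts in all, and 16 for KRT18, with 11 and 17. The highest were KRT8P12 with 3 and 9 R1 counts and KRT18P55 with 5 and 8. In GENCODE release 29, 52.1% of the 30-base stretches of the KRT18 mRNAs also occur in transcripts of another gene, 47.1% in KRT18 pseudogenes. For KRT8 the shares were 29.4% and 20.2%, and for KRT19 the first share was 11.9%. The count of KRT18 and KRT8 is therefore uncertain to the extent that reads with several matches were split or dropped, which the sources used here do not state. Inside KRT18, the miRNA entry AC107016.2 held 4 and 10 R1 counts and the pseudogene entry AC107016.1 held 1 and 6.

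VIM encodes vimentin, the intermediate filament protein of mesenchymal cells (chr10:17270258-17279592, plus strand). It had 382 R1 and 343 R2 counts in replicate 1, and 722 and 610 in replicate 2. These were the highest of the 10 genes in each of the 4 tables. The level was 13.7 CPM (12.3 to 15.1) in replicate 1 and 35.1 CPM (32.6 to 37.7) in replicate 2, a mean of 24.4 CPM ± 15.1 (SD, n = 2). Per kilobase VIM lay at percentile 99.0 of all protein-coding genes, and at percentile 99.4 of the genes in its length decile. An antisense gene, RP11-124N14.4 (VIM-AS1), shares 1727 bases with VIM and had 147 and 246 R1 counts over its whole length. A second, RP11-124N14.3, lies inside VIM and had 79 and 154. Of the 30-base stretches of the VIM mRNAs, 36.1% occur in transcripts of other genes, on either strand, 25.2% in VIM-AS1 and 10.9% in RP11-124N14.3 (named AL133415.1 in that release). If every count of the second were taken off, 303 and 568 counts would remain.

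CDH2 encodes N-cadherin, the classical cadherin of neural and mesenchymal cells (chr18:25530930-25757410, minus strand). It had 84 R1 and 73 R2 counts in replicate 1, and 152 and 130 in replicate 2. Its span of 226 kb is the longest of the 10. In CPM its mean of 5.20 ± 3.09 (SD, n = 2) lay above that of CDH1, but per kilobase the 2 cadherins were at 0.0229 ± 0.0137 and 0.0199 ± 0.00751 CPM per kilobase. The order of the cadherins per kilobase was CDH1 0.0146 over CDH2 0.0133 in replicate 1 and CDH2 0.0326 over CDH1 0.0252 in replicate 2. The order in replicate 1 rested on the 5S copy: with nested features of at most 500 bases taken off, CDH2 was the higher cadherin in both libraries, at 0.0131 against 0.0113 and 0.0326 against 0.0198 CPM per kilobase. Per kilobase of exon, CDH2 was at 1.05 ± 0.625 and CDH1 at 0.317 ± 0.119 CPM (SD, n = 2).

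FN1 encodes fibronectin, the matrix glycoprotein that binds integrins (chr2:216225163-216300895, minus strand). It had 40 and 37 counts in the R1 and R2 tables of replicate 1, and 117 and 104 in those of replicate 2. As a ratio, FN1 had the widest gap between the libraries of the 9 genes with counts, 1.43 CPM (1.02 to 1.95) against 5.68 CPM (4.70 to 6.81). The mean was 3.56 CPM ± 3.0 (SD, n = 2). No other listed feature except piRNA entries overlapped FN1, and 0 of its 30-base stretches occurred in another gene's transcripts.

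ITGA5 and ITGB1 encode the alpha and beta subunits of the main fibronectin receptor. ITGA5 (chr12:54789045-54813244, minus strand) had 73 R1 and 63 R2 counts in replicate 1, and 102 and 93 in replicate 2. ITGB1 (chr10:33189247-33294720, minus strand) had 128 and 110 in replicate 1, and 181 and 149 in replicate 2. ITGB1 stood above ITGA5 in every table by count, at 6.69 CPM ± 2.97 against 3.78 ± 1.65 (SD, n = 2). Per kilobase of span the order turned, with ITGA5 at 0.156 ± 0.0683 and ITGB1 at 0.0634 ± 0.0282 CPM per kilobase, and the 2 libraries of one did not overlap those of the other. Per kilobase of exon, ITGB1 was at 1.11 ± 0.495 and ITGA5 at 0.50 ± 0.218 CPM, so the order of the receptor's subunits depended on the length used. ITGA5 lies whole within 2 long antisense genes on the other strand, RP11-753H16.3 (118 and 162 R1 counts) and RP11-753H16.5 (116 and 159). Of their exonic bases, 48 of the second and 0 of the first lie over an exon of ITGA5. Counts are listed over whole spans, however, and each antisense gene had more counts over its longer span than ITGA5. With their whole counts taken off, ITGA5 came to 0 in both libraries. That outcome was fixed in advance, because each antisense count was the larger, so it does not show where the reads came from. Because ITGA5 lies whole within both spans and strand use was not stated, its level and its place per kilobase are uncertain. ITGB1 has 1 listed pseudogene, ITGB1P1, with 10 and 7 R1 counts. The lincRNA RP11-462L8.1, which overlaps the ITGB1 span from the other strand, had 13 and 13.

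**Figure D2:**
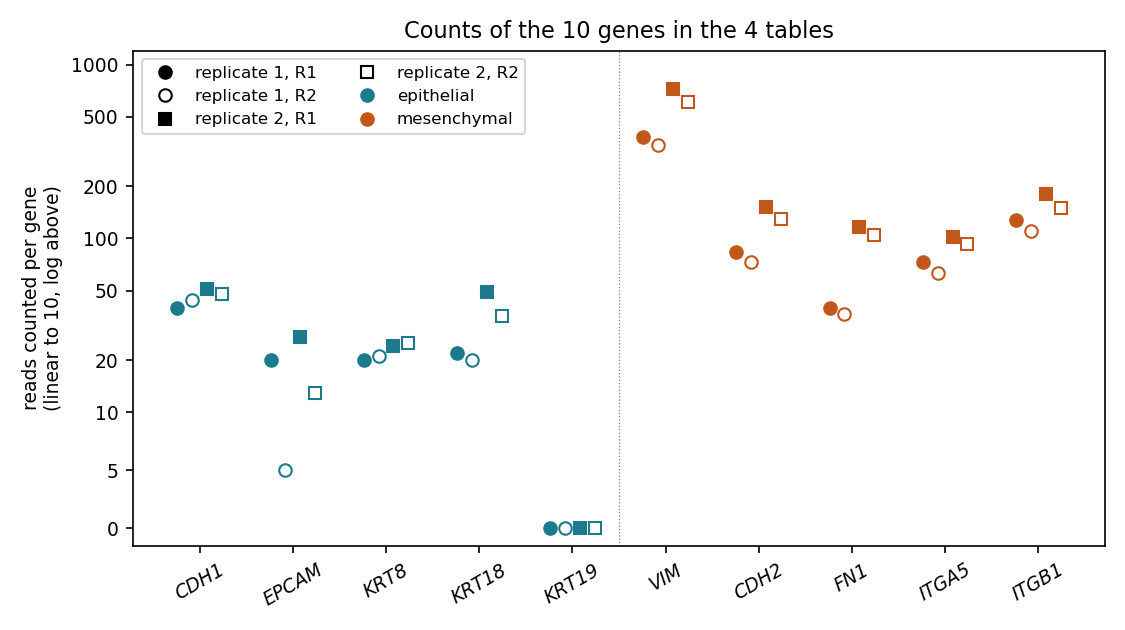
Reads counted per gene (vertical axis, linear to 10 and logarithmic above) for the 10 genes in the 4 tables. Circles are replicate 1 and squares replicate 2, filled for R1 and open for R2. VIM is the highest in each table, KRT19 is at 0 in all 4, and EPCAM is the gene whose R2 points lie furthest below its R1 points.

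The 2 groups were then compared within each library. In R1 the 5 epithelial genes summed to 102 counts (replicate 1) and 151 counts (replicate 2), whereas the 5 mesenchymal genes summed to 707 and 1274. In R2 the sums were 90 and 122 against 626 and 1086. The mesenchymal sum was 6.93 times the epithelial one in replicate 1 and 8.44 times in replicate 2, and 6.96 and 8.90 times in R2. VIM alone made 54.0% and 56.7% of the mesenchymal R1 sum. By the median gene of each group, which does not rest on VIM, the ratio was 4.2 and 5.63, a mean of 4.91 ± 1.01 (SD, n = 2). In R2 it was 3.65 and 5.20. Both mates of both libraries therefore placed the mesenchymal group higher by count. Taking 1 gene from each group, the mesenchymal gene had the higher R1 count in 24 of 25 pairs in replicate 1 and in all 25 in replicate 2.

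Per kilobase of span the gap narrowed in both mates. The median epithelial gene was at 0.0199 ± 0.00751 and the median mesenchymal gene at 0.0634 ± 0.0282 CPM per kilobase (SD, n = 2). Their ratio was 2.98 in replicate 1 and 3.31 in replicate 2, a mean of 3.15 ± 0.230. In R2 it was 2.62 and 2.98, a mean of 2.80 ± 0.255. Per kilobase of exon the ratio was 2.62 and 3.65 in R1 (mean 3.13 ± 0.726) but 4.83 and 4.80 in R2 (mean 4.82 ± 0.0206), so on that scale the gap in R2 did not narrow against the 4.42 ± 1.10 in CPM. The mesenchymal gene was higher in 18 of the 25 pairs in replicate 1 and 21 in replicate 2. The median over all 20298 protein-coding genes was 0.0448 CPM per kilobase, between the group medians. With 1 group of samples there was no test between conditions, and the genes of a group are not replicates, so these ratios carry no p.

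The groups mixed in the order of the single genes. In order per kilobase the genes were VIM (2.61 ± 1.62), KRT18 (0.393 ± 0.279), ITGA5, ITGB1, FN1 (0.0470 ± 0.0397), EPCAM (0.0239 ± 0.00991), CDH2, CDH1, KRT8 (0.0178 ± 0.00602) and KRT19. The order of the first 5 was the same in all 4 tables. Between neighbours, the 2 libraries of one lay wholly above those of the next only for VIM over KRT18, ITGA5 over ITGB1 and KRT8 over KRT19. The libraries of the other neighbours overlapped, and the orders of EPCAM and CDH2, and of CDH2 and CDH1, were not held within both libraries. KRT18, a short gene, was the one epithelial gene in the upper part of the order, at percentile 92.6 of protein-coding genes. Within its length decile it lay at percentile 76.7, close to ITGA5 at 77.9 in its own decile. CDH1, EPCAM and KRT8 lay at percentiles 31.9, 30.5 and 29.9 of their deciles, CDH2 at 48.0, FN1 at 49.5 and ITGB1 at 65.4. Per kilobase of exon the order was VIM (4.73 ± 2.93), ITGB1, CDH2, ITGA5, KRT18, EPCAM, CDH1, FN1, KRT8 and KRT19. On that scale FN1 came 8th and KRT18 came 5th. That scale divides the count over the whole span by the exon length alone. Exons made 2.19% of the CDH2 span but 79.8% of the KRT18 span, so intronic reads weigh unequally in this order. The place of EPCAM rested on the 7SK copy. With nested features of at most 500 bases taken off, EPCAM was at 0.0050 ± 0.00588 CPM per kilobase (SD, n = 2) and came 9th on both scales, below CDH2, CDH1 and KRT8. KRT8 then came 7th per kilobase of span and CDH1, at 0.0155 ± 0.00598, 8th.

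**Figure D3:**
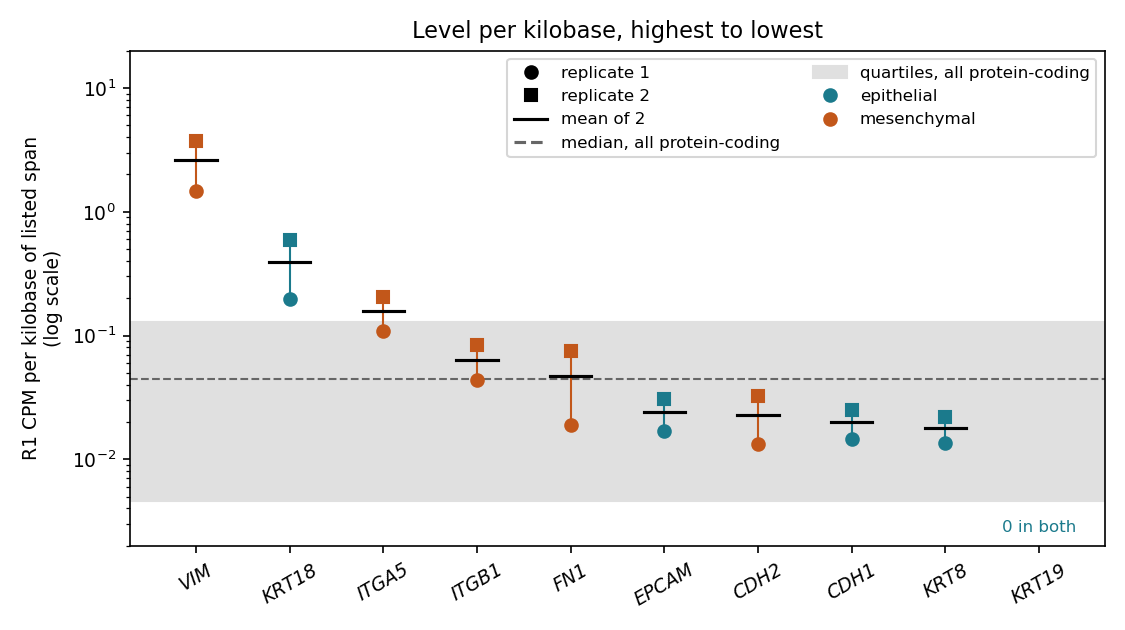
R1 CPM per kilobase of listed span (logarithmic axis) for the 10 genes, highest to lowest. Circles and squares are replicates 1 and 2, the black bar their mean, the dashed line the median and the grey band the quartiles of all 20298 protein-coding genes. The means of VIM (2.61), KRT18 (0.393) and ITGA5 (0.156) stand above the band, and CDH1, EPCAM, KRT8 and CDH2 lie between 0.0178 and 0.0239, below the median of 0.0448.

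The mates gave like pictures for the genes other than EPCAM. R2 over R1 lay between 0.859 and 1.10 in replicate 1, and between 0.735 and 1.04 in replicate 2, for the 8 other genes with counts. KRT8 was the gene with more R2 than R1 counts in both libraries, at ratios of 1.05 and 1.04, and CDH1 had ratios of 1.10 and 0.941. The 5 mesenchymal genes kept to a narrow range, 0.859 to 0.925 in replicate 1 and 0.823 to 0.912 in replicate 2.

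All 9 genes with counts had more R1 counts in replicate 2 than in replicate 1, although replicate 2 had the smaller total. That direction was not particular to them. Scaled to library totals, the log2 split of the 13220 protein-coding genes had a 10th percentile of 0.680 and a median of 1.11. To compare the split of each gene with that of the other features, an exact two-sided binomial test on TMM-scaled library sizes (edgeR), with Benjamini-Hochberg adjustment over 18723 features, was applied. It compares 1 library with the other and says nothing of conditions. Of all features 8.80% passed an adjusted p of 0.05, and of the 13220 protein-coding genes 5.35%, 2.37% higher and 2.98% lower in replicate 2. Of the 9 genes tested 2 passed, both higher in replicate 2 and both mesenchymal. FN1 was higher by 0.88 on the log2 scale (adjusted p = 0.00885) and VIM by 0.26 (adjusted p = 0.0435). The 7 others ranged from -0.40 for KRT8 (adjusted p = 0.774) to 0.48 for KRT18 (adjusted p = 0.530). In R2, the other mate of the same 2 libraries, 6.44% of the features passed. There FN1 also passed (exact binomial test, adjusted p = 0.0201) and VIM did not (adjusted p = 0.216). The median log2 split was -0.27 for the 4 epithelial genes tested, 0.20 for the 5 mesenchymal and 0.01 for the protein-coding genes. TMM scaling shifted every log2 split by 1.09 against the library totals. With totals, 8 of the 9 genes passed, all higher in replicate 2, as did 82.7% of the features in either direction and 89.1% of the protein-coding genes as higher. The biological coefficient of variation that edgeR estimated between the libraries was 0.192, which the binomial test does not hold.

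**Figure D4:**
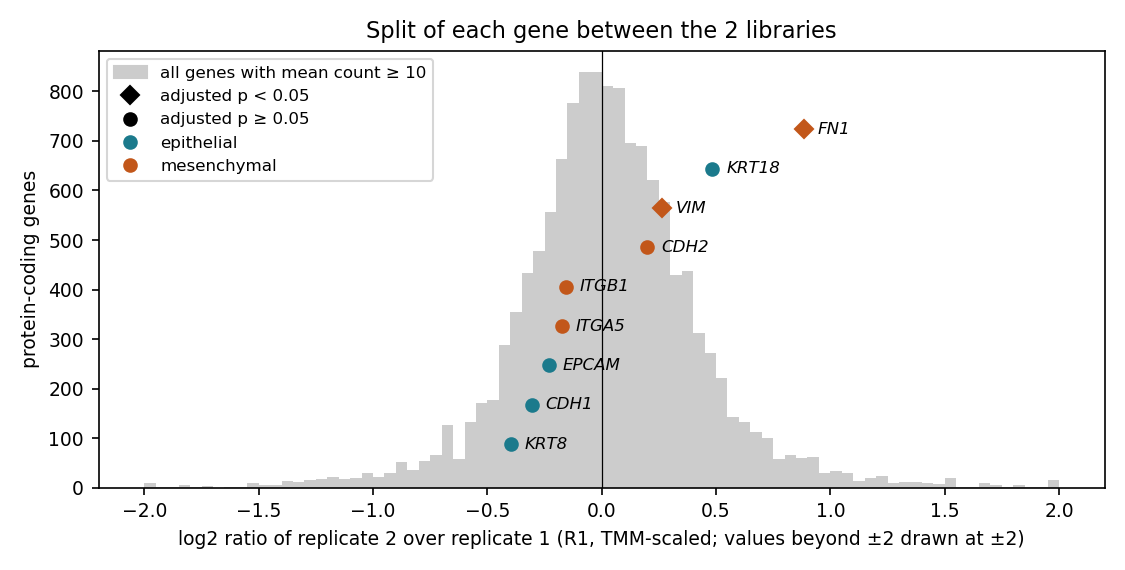
Log2 ratio of replicate 2 over replicate 1 (horizontal axis, R1, TMM-scaled) for all protein-coding genes with a mean count of at least 10 (grey histogram, number of genes on the vertical axis) and for 9 of the 10 genes. The height of a named point has no meaning. FN1 (0.88) and VIM (0.26), drawn as diamonds, passed the adjusted p of 0.05.

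The genes most like VIM and CDH1 were found by the Euclidean distance of log2(CPM + 0.5) over the 4 tables. Nearest to VIM were BCOR (distance 0.0634; 393 and 730 R1 counts), SRSF1 (0.0704; 399 and 726) and GCN1 (0.0712; 397 and 729). Nearest to CDH1 were SPCS1 (0.0593; 40 and 51), SLC25A28 (0.144; 39 and 53) and CCDC146 (0.146; 41 and 48). These are transcriptional, splicing, translational, secretory and mitochondrial genes and a coiled-coil gene, and 0 of the 6 is an adhesion or filament gene. The distance compares levels and the mate and library splits only, without length.

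The other genes of these structures were set beside the 10. Adherens junction genes, which tie cadherins to actin, had a list median of 0.137 CPM per kilobase, and all 8 passed the mean count of 10. CTNNB1 (beta-catenin) had 394 and 670 R1 counts, CTNND1 (p120 catenin) 204 and 331, and JUP (plakoglobin) 69 and 180. JUP was higher in replicate 2, by 0.72 on the log2 scale (exact binomial test, TMM, adjusted p = 0.00461), and the 7 others did not pass. Per kilobase CTNNB1 was at 0.357 ± 0.199 and CTNND1 at 0.176 ± 0.0935 CPM (SD, n = 2), against 0.0199 for CDH1 and 0.0229 for CDH2.

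Tight junction genes had a lower median, 0.0147 CPM per kilobase, with 6 of 11 past the minimum. CGN (cingulin) had 32 and 54 R1 counts, F11R (JAM-A) 32 and 38 and OCLN (occludin) 60 and 89, while CLDN3 (a claudin) had 0. Desmosome genes, whose plaques anchor keratins, had a median of 0.0325 with 5 of 7 past the minimum. DSP (desmoplakin) had 204 and 367, DSG2 (a desmosomal cadherin) 194 and 267, DSC2 (another) 40 and 54, and PKP3 (a plaque protein) 0. No tight junction or desmosome gene passed the test of the split between libraries.

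Of 9 other keratins 0 passed the minimum, and KRT5, KRT14, KRT15, KRT17 and KRT80 were at 0 in all 4 tables. Of the keratins looked at, KRT8 and KRT18 were thus the ones past the minimum. Among 13 other intermediate filament genes 9 passed, with a median of 0.0642 CPM per kilobase. Of the lamins, which line the nuclear envelope, LMNB2 had 290 and 601 R1 counts and LMNB1 213 and 431. Both were higher in replicate 2, by 0.40 and 0.36 on the log2 scale (exact binomial test, TMM, adjusted p = 0.00197 and 0.0312). LMNA had 121 and 94 and was lower in replicate 2, at -1.02 on the log2 scale (exact binomial test, TMM, adjusted p = 6.83e-06). In R2 LMNA had 71 and 83 counts and did not pass, at -0.39 (adjusted p = 0.443), nor did LMNB1 (0.32, adjusted p = 0.137), whereas LMNB2 passed in both mates (adjusted p = 0.00847 in R2). NEFL, a neurofilament subunit, had 23 and 46.

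Of 5 other classical cadherin family genes 3 passed the minimum: CDH24 with 16 and 32 R1 counts, CDH4 with 16 and 29 and CDH13 with 7 and 34. CDH13, which lacks a cytoplasmic tail, was higher in replicate 2 (log2 1.55, exact binomial test, TMM, adjusted p = 0.0427). That call rested on R1, since the R2 counts of CDH13 were 5 and 10, a log2 split of 0.32, and were too low to be tested. Of 14 other integrin subunits 10 passed, with a median of 0.0219 CPM per kilobase. ITGAV had 80 and 143, ITGA6 68 and 103 and ITGA3 29 and 39, each per kilobase below ITGA5 and ITGB1. None of the 14 passed the test of the split.

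All 13 adaptors between integrins and actin passed the minimum, with a median of 0.0888. FLNA (filamin A) had 481 and 971, TLN1 (talin) 347 and 614 and ZYX (zyxin) 93 and 151, and FLNA was the one adaptor that passed the test of the split, higher in replicate 2 by 0.36 on the log2 scale (exact binomial test, TMM, adjusted p = 0.000142). Matrix proteins had a median of 0.0356, with 12 of 18 past the minimum. COL6A1 had 142 and 217, LAMA5 146 and 267 and COL1A1 43 and 77, while COL1A2, the partner chain of COL1A1 in type I collagen, had 0. In all, 66 genes of these 9 lists were past the minimum, and 6 of them passed the test of the split (9.09%). Of all tested features 8.80% passed, close to that share, and of the protein-coding genes past the minimum 5.35%. In R2, JUP, LMNB2 and FLNA passed, LMNA and LMNB1 did not, and CDH13 was too low to be tested.

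**Figure D5:**
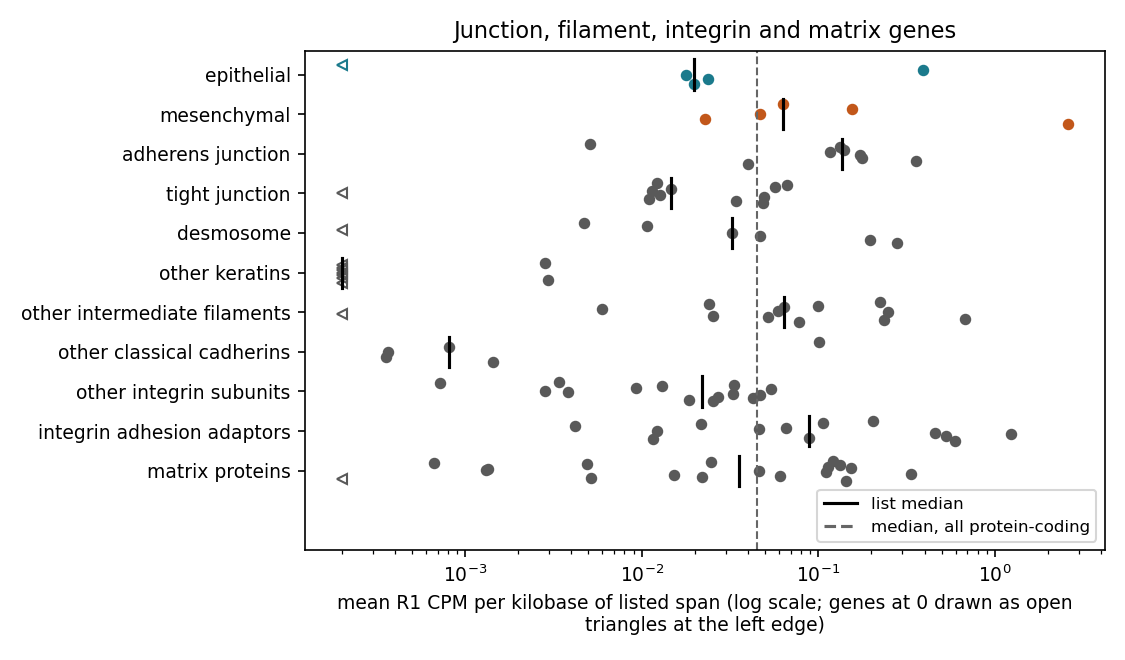
Mean R1 CPM per kilobase of listed span (logarithmic axis) of each gene in the 2 groups and in 9 lists of junction, filament, integrin and matrix genes. Black bars are list medians, the dashed line is the median of all protein-coding genes (0.0448), and open triangles at the left edge are genes at 0. The medians of adherens junction (0.137), adaptor (0.0888) and other intermediate filament genes (0.0642) lie above the mesenchymal median (0.0634), and the other keratins lie at or near 0.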

How the data were processed

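RNA bound to hTrmt13 was measured in MDA-MB-231 cells, in 2 replicates of 1 group. The authors deposited raw read counts for each listed feature, with 1 table per read mate. The build was hg19 (GRCh37) and the tools bedtools 2.24.0 and Bowtie2 2.3.5.1, per the submitters' processing notes. Strand use and the handling of reads with several matches were not given in the sources used here. Each table lists 741091 lines, and after 13 repeats were dropped 741078 features remained.

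CPM was computed per table, from totals of 27907799 and 20590398 (R1) and 11246823 and 8793089 (R2). Spans are those of the tables. Exons, 30-base matches and the 2 sequences came from GENCODE release 29 (GRCh38), matched by gene ID, with no conversion of positions. Feature overlaps and pseudogenes came from the tables, piRNA entries left out. How a feature split between replicates was tested with an exact two-sided binomial test on TMM sizes (edgeR 4.0.16, R 4.3.3; DESeq2 1.42.0 size factors as an alternative) for features with a mean R1 count of at least 10, adjusted by Benjamini-Hochberg at 0.05. On simulated data of 18723 features with counting error only, 48% of the 2-fold and 79% of 4-fold changes were found, or 81.8% and 100% above 100 counts. Of the unchanged simulated features 0.0054% were called, whereas 8.80% of the real features were. The simulation held no further variation between libraries, so these shares need not hold for the real data. Python was version 3.11.15 with scipy 1.17.1, pandas 2.3.3, numpy 2.4.6 and matplotlib 3.10.9.

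The members and lists were chosen with earlier results of these data known. Genes named are the 10 members, the 3 highest of each list per kilobase, the highest markers, overlapping features with at least 10% of a member's R1 count in a library, the 3 highest pseudogenes, and the 3 genes nearest to VIM and to CDH1. LMNA, RN7SK, RNA5S1 and the genes named at 0 or low counts, or as further markers, are outside that rule, chosen once their values were known. PECAM1, an endothelial marker, was not analysed here.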

Additional observations from a re-analysis of the deposited data

How the results depend on the processing

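The mesenchymal group stayed above the epithelial group under every alternative that gave a value. On the log2 scale the ratio of group medians in CPM was 2.28 and lay between 2.07 and 2.49 with 1 replicate left out. It was 1.93 with pseudogene counts added and 2.93 as a ratio of sums. Per kilobase the ratio was 1.65, and 1.58 to 1.73 with 1 replicate left out. It was 1.48 in R2, 1.48 with pseudogenes added, 2.71 as a ratio of sums and 1.52 over members with a mean count of at least 10. As a ratio of geometric means it was 0.46, with an added 0.5 that exceeds the mean level per kilobase of all members but VIM. Alternatives added after the data were seen gave 2.01 without nested features of at most 500 bases, 1.38 without VIM, 1.52 without KRT19 and 1.33 per kilobase of coding exons. Of the genes tested for their split, 2 passed, against 8 with library totals and 1 in R2, and no member that passed was lower in replicate 2. VIM was close to the threshold, with an adjusted p (exact binomial test) of 0.00361 (both mates summed) to 0.0470 (DESeq2 size factors) in the R1 and summed settings scaled by TMM or DESeq2. The CPM of single members moved by more than 1 SD in 25 of 80 recomputed values, 20 upwards. That share is no measure of stability. With 2 replicates, leaving 1 out cannot move the mean by 1 SD, and KRT19 stayed at 0. The R2 tables and the total without tRNA features have smaller totals, which raises CPM, as for CDH1 from 1.96 to 4.69 and 15.1.

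Taking off the counts of all overlapping features gave no ratio over both libraries, because the epithelial median became 0 in replicate 1. In replicate 2 it became 8 counts against 150. This setting took off the whole count of each overlapping feature, also from outside the shared bases. KRT8 and KRT18 thus lost each other's full counts, and KRT8 and ITGA5 came to 0 in both libraries. It took off too much, so these medians do not measure the groups. The R2 split of single list genes was also added after the data were seen. Coding length from RefSeq proteins was not run, because no protein table was used here. No paired analysis was possible because all libraries belonged to 1 group. CDH1 and KRT8 had 20 to 51 R1 counts, and their libraries overlapped per kilobase. EPCAM was left with 1 and 8 once its 7SK copy was taken off.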
